A study of Homo sapiens with 2 samples.

Results

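Mature microRNAs (miRNAs) with sequences rich in G and C were followed in Huh7 cells, an established human hepatocellular carcinoma line. They are miR-1915-3p (MIMAT0007892), miR-638 (MIMAT0003308), miR-663a (MIMAT0003326), miR-149-3p (MIMAT0004609), miR-1908-5p (MIMAT0007881) and miR-762 (MIMAT0010313), with their miRBase accessions. They make up 6 of the 1001 rows of the array table and were picked by name, as GC-rich miRNAs that are often bright on arrays, and because miR-1915-3p had the largest ratio of treated over control among the brighter probes. The ratio of miR-1915-3p therefore chose it, and the values below are a description of these miRNAs. The treated Huh7 cells received 10 µM Y27632, a small-molecule kinase inhibitor, for 12 hours. The other sample was control Huh7 cells, whose title gives no vehicle and no time of harvest, so a difference in either cannot be told apart from the treatment. Both samples came from the same cell line, in medium with fetal bovine serum, and each condition had 1 array. Without replicates no error and no test could be given, and each difference below is between 2 arrays.

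A mature miRNA is a short RNA cut from a hairpin precursor and held by an Argonaute protein. It pairs with messenger RNAs mainly through its seed, bases 2 to 8 from the 5′ end, and lowers their translation or stability, so miRNAs with the same seed share many potential targets. The suffixes 5p and 3p name the arm of the hairpin from which a mature miRNA comes. An array probe pairs with the whole mature strand, and its brightness depends on base composition as well as on abundance, so intensities of different miRNAs do not rank their abundance.

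The 6 sequences are shown because base composition defines the set and because seeds decide which members could act on the same messenger RNAs. All 6 names were found in the RefSeq miRNA table (GRCh38.p14), and the seed is in capitals.
miR-1915-3p: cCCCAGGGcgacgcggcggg
miR-638: aGGGAUCGcgggcggguggcggccu
miR-663a: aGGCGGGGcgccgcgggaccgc
miR-1908-5p: cGGCGGGGacggcgauugguc
miR-149-3p: aGGGAGGGacgggggcugugc
miR-762: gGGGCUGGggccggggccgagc

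The shared seed GGCGGGG joined miR-663a and miR-1908-5p, and the other 4 miRNAs each had a seed of their own within the set. RefSeq listed the same seed in miR-6787-5p and miR-10396b-5p. The seed of miR-149-3p also occurred in miR-4728-5p and miR-6785-5p, that of miR-762 in miR-5001-5p, miR-4492 and miR-4498, and that of miR-1915-3p in miR-6764-5p. No other name in the table had the seed of miR-638. Levels of these outside miRNAs are not given, because the array rows carry accessions that neither the table nor the reference pairs with names. Whether the array has a row for any of them could therefore not be told.

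The base composition of the 6 fitted the label GC-rich, under which they were picked. G plus C made up 90.9% of miR-663a and of miR-762, 90.0% of miR-1915-3p, 80% of miR-638, and 76.2% of miR-149-3p and of miR-1908-5p. Over the 2370 mature names in RefSeq the median was 52.2%, with quartiles of 42.9% and 61.4%, and 5.57% of names reached 75%. These names, also the base for the G runs below, are not the array's own set, which has 1001 rows. G was the most frequent base in each of the 6, from 50% of miR-1915-3p to 63.6% of miR-762, against a median of 27.3% over all names. Both miR-1915-3p and miR-663a contained 0 U.

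**Figure D1:**
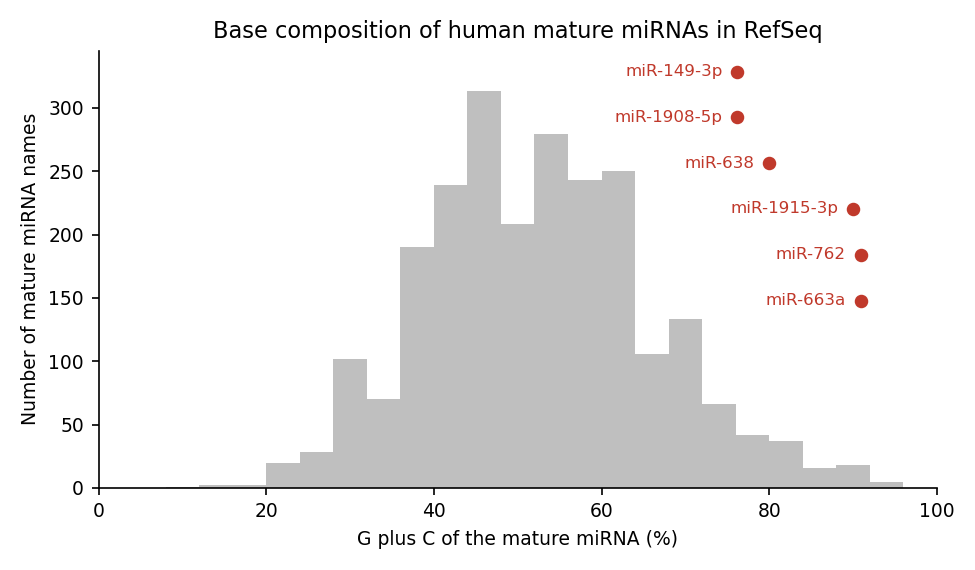
Histogram of the percentage of G plus C in 2370 human mature miRNA names from RefSeq (x axis) against the number of names (y axis). Red points mark the 6 miRNAs at their own percentages, with heights chosen only to separate the labels. They lie between 76.2% and 90.9%, above the upper quartile of 61.4%.

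Runs of G were also shared by the sequences, though names of like G content were not set beside them. The motif GGG, read on the mature strand alone, occurred in 6 of 6 and in 33.2% of all names, and GGGG occurred in 4 of 6 and in 11.7% of all names, every GGGG also counting as a GGG. At least 2 separate runs of 3 or more G were present in 5 of 6 and in 9.16% of all names, the exception being miR-1908-5p with 1 run. Despite this likeness the 6 strands were distinct, since the longest identical stretch between any pair was 7 bases. That length was reached by miR-663a with miR-1908-5p, where the stretch is the seed itself, by miR-1915-3p with miR-1908-5p, and by miR-149-3p with miR-1908-5p and with miR-762. Stretches shared with a mature miRNA outside the set were longer, with 11 bases between miR-638 and miR-4707-5p, 10 bases between miR-663a and miR-9899, and 9 bases between miR-1915-3p and miR-6724-5p. How far the array's probes tell such miRNAs apart was not tested.

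The 6 genes lie on 6 different chromosomes, and no pair of them forms a genomic cluster. MiR-1915-3p is at chr10:21496576-21496595 on the minus strand (GRCh38.p14), within the span of its long noncoding host RNA MIR1915HG. MiR-663a, at chr20:26208243-26208264 on the minus strand, lies within the span of the long noncoding RNA gene MIR663AHG. MiR-638 is at chr19:10718419-10718443 on the plus strand, inside DNM2, which encodes the membrane-fission GTPase dynamin 2. MiR-149-3p is at chr2:240456056-240456076 on the plus strand, within the spans of GPC1, a gene for a cell-surface heparan sulfate proteoglycan, and GPC1-AS1. MiR-1908-5p is at chr11:61815209-61815229 on the minus strand, inside FADS1, which encodes a fatty acid desaturase. MiR-762 is at chr16:30893951-30893972 on the plus strand, inside BCL7C, a gene for a subunit of BAF chromatin remodelling complexes, and the noncoding MIR762HG. The reference gives gene spans without exons, so exonic and intronic positions are not stated. Spans were matched by position alone, and the strand of a spanning gene was not compared with that of its miRNA.

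The precursor of miR-1915-3p is shown because this miRNA had the largest ratio, and its 3p strand is in capitals at bases 47 to 66 of 80. The whole hairpin, at chr10:21496562-21496641 on the minus strand, was 78.8% G plus C.
MIR1915: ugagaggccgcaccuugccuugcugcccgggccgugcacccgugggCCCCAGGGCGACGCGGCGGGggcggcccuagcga
The other strand of this hairpin, miR-1915-5p, was 72.7% G plus C. Opposite strands were also listed in RefSeq for the hairpins of miR-149 (miR-149-5p, 60.9% G plus C) and miR-1908 (miR-1908-3p, 95.2%). Whether the array has a row for each of these opposite strands could not be told, since its rows carry no names.

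By date of registration the 6 were mixed, and 3 of them were late entries. MiRBase accessions run broadly in order of registration, and among the 1001 rows sorted by accession miR-1908-5p stood at place 921, miR-1915-3p at 932 and miR-762 at 976, all within the last 25%. MiR-149-3p stood at 619, miR-663a at 466 and miR-638 at 448.

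The Y27632 array listed a value for 614 rows and the control array for 619, with 519 rows on both. Listed intensities ran from 2.7 to 43198.2 on the Y27632 array, with a median of 6.1, and from 2.3 to 45829.6 on the control array, with a median of 6.0. All 6 GC-rich miRNAs were listed on both arrays and lay in the brighter 50% of the 519 probes by mean log2 intensity (260 probes, geometric mean of at least 7.57). All but miR-1915-3p also lay in the brightest 25% (130 probes, at least 26.2). Defining miRNAs of hepatocytes, blood cells, endothelium, smooth muscle and neurons were not evaluated, since their rows could not be named, so the cell type was not checked beyond its label.

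Each of the 6 miRNAs read higher on the Y27632 array than on the control array, and for 5 of them the difference was small. Of the 260 brighter probes 43.5% read higher after Y27632, and of the brightest 25%, which held 5 of the 6, 42.3% did. The share of the 260 depends on the scaling, at 52.7% after lowess, 47.3% after quantile normalization and 39.6% once 0.4, the gap between the minima of the 2 arrays, was taken off each Y27632 value. At a limit of 1.5-fold, 1 of the 6 was higher, against 1.15% of the brighter probes (3 of 260, 1 of them miR-1915-3p). At 2-fold, 0 of the 6 were higher or lower, against 0.385% of the brighter probes (1 of 260, which was lower). No reading is taken from these counts, because the members were picked with the ratios known. The median log2 ratio of Y27632 over control was 0.17 for the 6 and 0.15 without miR-1915-3p, beside −0.03 for the 260 brighter probes, whose quartiles were −0.22 and 0.12, and −0.03 for the brightest 25%. After quantile normalization the medians were 0.23 for the 6 and 0.00 for the 260, and after lowess 0.22 and 0.01, so the sign of the small median of the 260 turned under lowess.

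MiR-1915-3p, which has been described as a repressor of the survival gene BCL2 in human colorectal cancer cells, read 30.2 on the Y27632 array and 17.8 on the control array. The ratio was 1.70, a log2 ratio of 0.76, and its rank by intensity was 117 after Y27632 and 155 in the control. It had the highest ratio of the 260 brighter probes, which is how it was chosen, and the next highest log2 ratio was 0.66. It was also the dimmest of the 6, and the spread of ratios was wider at its level than around the other 5, where the robust SD, a spread computed from the median absolute deviation, was 0.14 to 0.21. Among the 100 probes nearest to it in brightness (geometric mean 11.4 to 46.2) log2 ratios ran from −1.002 to 0.46, and the robust SD was 0.27. Its ratio lay 2.96 robust SDs above the median of those probes. That spread mixes measurement noise and any response of the neighbouring miRNAs, and it is no replicate error.

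The probes with control values near that of miR-1915-3p show the same ratio in another form, since that ratio chose it. Within 1.5-fold of 17.8, from 11.9 to 26.7, there were 67 other probes on the control array, and 66 of them were listed on the Y27632 array. Those read 8.1 to 30.8 after Y27632, with a median of 15.25, and 1 of the 66 was above the 30.2 of miR-1915-3p. The probe above it also read higher in the control, at 23.5.

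MiR-1908-5p, one of the pair with the seed GGCGGGG, read 148.6 on the Y27632 array and 128.4 on the control array, a log2 ratio of 0.21. Among its 100 neighbours in brightness 5 had a higher ratio and 95 a lower one, and it lay 1.49 robust SDs above their median. MiR-663a, which carries the same seed, read 65.0 after Y27632 and 58.4 in the control, a log2 ratio of 0.15. Of its neighbours, 16 had a higher ratio and 84 a lower one, with a distance of 0.87 robust SDs. Both miRNAs with this seed thus read higher after Y27632, by 15.7% for miR-1908-5p and 11.3% for miR-663a, amounts within the range of their neighbours' ratios.

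MiR-149-3p comes from the 3p arm of a hairpin whose 5p strand is the more often studied product. It read 84.0 on the Y27632 array and 73.5 on the control array, a log2 ratio of 0.19, and 9 of its 100 neighbours had a higher ratio. Its distance was 1.30 robust SDs. MiR-762, the brightest of the 6, read 509.4 after Y27632 and 474.1 in the control, a log2 ratio of 0.10 and a distance of 0.91. After quantile normalization its log2 ratio was 0.24 and its distance 2.12. Its neighbours reach far up the scale, from a geometric mean of 36.4 to 5212, because few probes are that bright. MiR-638 had the smallest difference, at 149.3 after Y27632 and 143.7 in the control, a log2 ratio of 0.06 (3.90% higher) and a distance of 0.46, with 30 neighbours above it. Its log2 ratio was 0.11 after quantile normalization and 0.09 after lowess.

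**Figure D2:**
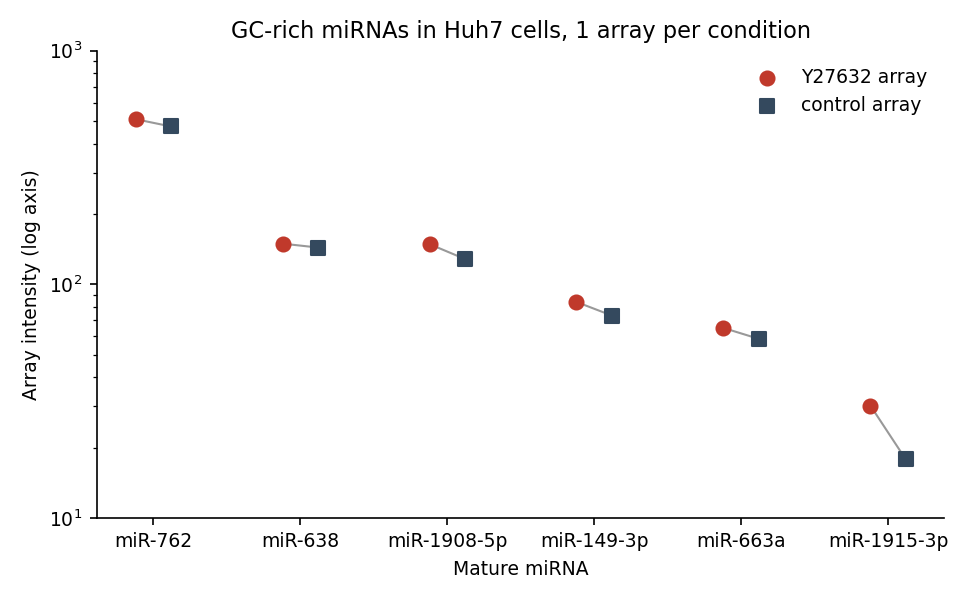
Deposited intensity (log axis) of the 6 miRNAs on the Y27632 array (red circles) and the control array (dark squares), 1 array each, ordered by control intensity, with a line joining the 2 values of a miRNA. The gap is widest for miR-1915-3p, at 30.2 after Y27632 and 17.8 in the control, and narrowest for miR-638, at 149.3 and 143.7 on the same arrays.

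The order of the 6 by signal was the same on both arrays. MiR-762 was brightest on each, followed by miR-638 and miR-1908-5p, then miR-149-3p, miR-663a and miR-1915-3p. Over all probes miR-638 and miR-1908-5p stood at ranks 48 and 49 on the Y27632 array and at ranks 50 and 55 on the control array. In share of summed array signal, miR-762 took 0.408% after Y27632 and 0.398% in the control, and the 6 together took 0.789% and 0.752% on the same arrays. The share of miR-638 was slightly lower after Y27632, at 0.119%, than in the control, at 0.121%, although its intensity was higher. Its direction therefore differs between intensity and share of the sum.

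**Figure D3:**
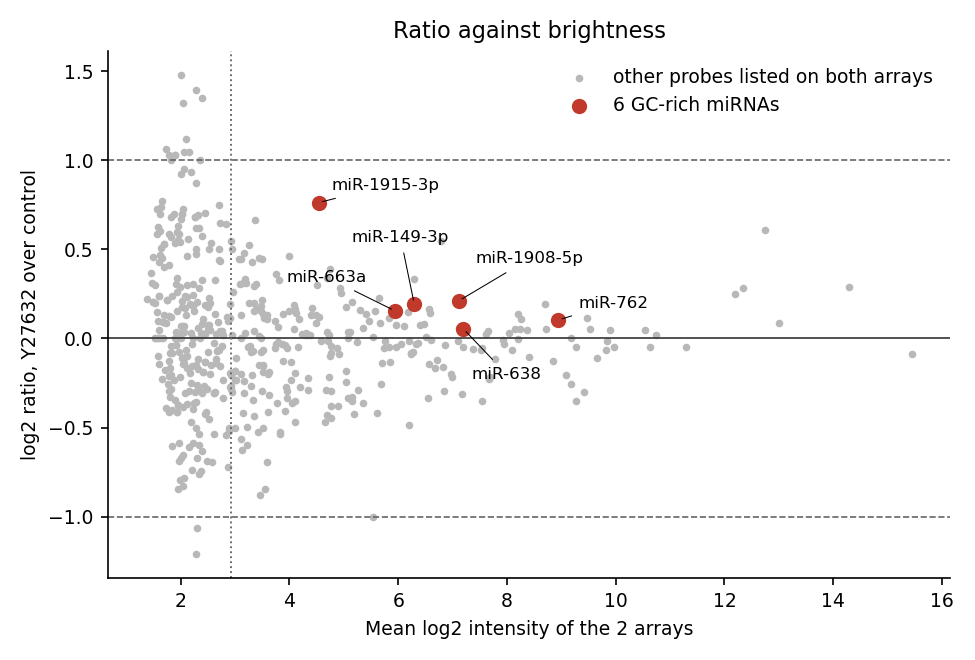
Log2 ratio of Y27632 over control (y axis) against mean log2 intensity of the 2 arrays (x axis) for 519 probes, with the 6 miRNAs in red. Dashed lines mark 2-fold and the dotted line the lower edge of the brighter 50%. The 6 lie above 0 and below the 2-fold line. MiR-1915-3p, at 0.76, is the highest point right of the dotted line, which is how it was chosen.

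**Figure D4:**
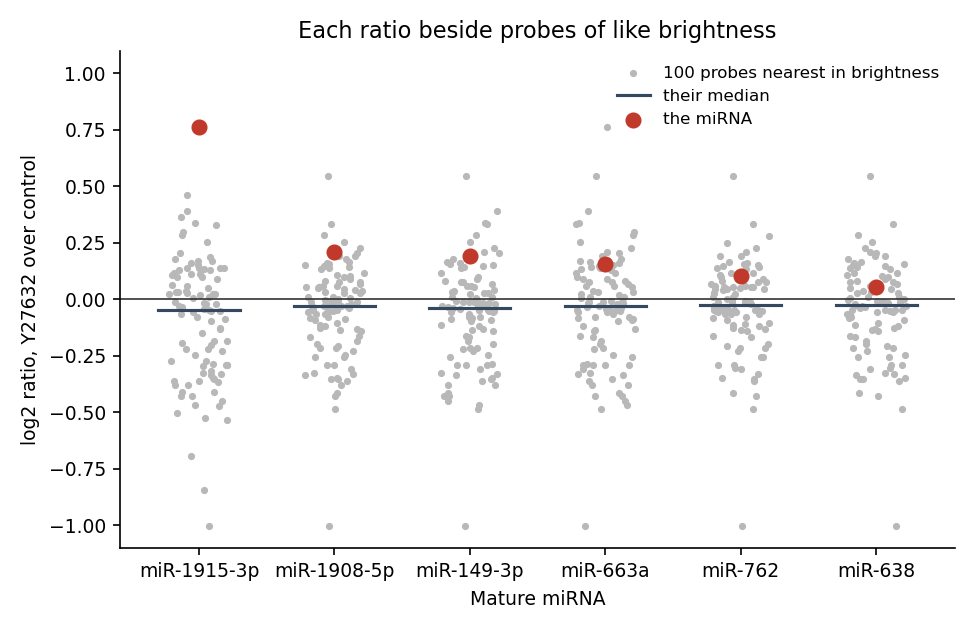
Log2 ratio of each miRNA (red) beside those of the 100 probes nearest in brightness (grey, spread sideways for sight) and their median (dark line). MiR-1915-3p lies above all 100 of its neighbours, whose highest ratio is 0.46, while the other 5 lie within theirs. Its place there was fixed by its choice as the highest ratio among the brighter probes, which include all 100. The grey point at 0.76 beside miR-663a is miR-1915-3p.

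The probes whose pair of values was most like that of miR-1915-3p were found by Euclidean distance in log2 intensity over the 2 arrays. The nearest, MIMAT0012172, read 25.1 after Y27632 and 20.4 in the control, at a distance of 0.33. The next, MIMAT0004590, read 29.2 after Y27632 and 23.1 in the control, at 0.38, and the third read 30.8 and 23.5 on the same arrays, at 0.40. Their log2 ratios were 0.30, 0.34 and 0.39. All 3 are among the brighter probes, so the choice of miR-1915-3p by its highest ratio there put them below its 0.76. With 2 arrays such likeness says only that the values are close.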

How the data were processed

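The authors deposited 1 intensity per probe and array, to 1 decimal, taken here as linear because the values have a long upper tail. RNA was labelled with Hy5 by an Exiqon miRCURY LNA kit, per the labels' protocols. Software, background correction and normalization are steps not given in the sources used here, and empty cells have no stated meaning. Spot replicates, background and saturation were not examined. The target of Y27632 is not reported here.

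Rows were identified by their accessions, and the names of the 6 miRNAs were taken from the list that selected them. The members and lists were chosen with earlier results of these data known. From the deposited intensities, the ratio of Y27632 over control and its log2 were computed with no pseudocount or further normalization. Probes named were the 6 members and the 3 nearest miR-1915-3p in both values. Other arms, seed sharers and GC-rich miRNAs outside the 6 were to be given with values, but 0 accessions stood in the reference. Alternatives were median centring, quantile normalization, lowess (fraction 0.4), a pseudocount of 3 (the mean 10th percentile), Y27632 values lowered by 0.4, other filters and a 1.5-fold limit. The calculation was tested on simulated data, where the planted changes were larger than any seen in the 6 miRNAs. That test does not bear on changes of their size. Sequences and positions are from RefSeq (GRCh38.p14). Python 3.11.15, numpy 2.4.6, pandas 2.3.3, statsmodels 0.14.6 and matplotlib 3.10.9 were used. With 1 array per condition, the number of arrays limits the precision.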

Additional observations from a re-analysis of the deposited data

How the results depend on the processing

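All 18 log2 ratios of the 6 miRNAs under quantile normalization, lowess and the lowered Y27632 values stayed above 0. Lowering by 0.4 could not turn a sign, since the 6 miRNAs read 5.6 to 35.3 higher on the Y27632 array. A pseudocount cannot turn one either. Of the brighter 50% of probes, 47.3% were above 0 after quantile normalization, 52.7% after lowess and 39.6% with the lowered values. As a share of summed signal, which was not among these settings, miR-638 was lower after Y27632 (0.1195%) than in the control (0.1207%). Of 30 ratios, with median centring and the pseudocount included, 29 moved by less than the robust SD of the 100 probes nearest in brightness. The exception was miR-762, at 0.24 after quantile normalization and 0.10 as deposited. That limit is loose for small ratios. For miR-638 it was 0.17, while the log2 ratio was 0.06 as deposited and 0.11 after quantile normalization. The log2 ratio of miR-1915-3p ran from 0.67 with the pseudocount to 0.82 after lowess. Centring on the median left the values as they were, because the median log2 ratio of all probes was 0, and says nothing about stability. Of the 6 miRNAs, 0 passed 2-fold under each filter and normalization tried, and 1 passed 1.5-fold. Of the brighter 50% of probes, 1 passed 2-fold in either direction as deposited, and 0 after quantile normalization, after lowess or with the pseudocount. At 1.5-fold, 9 of them passed. Without a filter on dim probes 16 passed 2-fold. With missing values set to the lowest listed, 7 passed 2-fold. There the brighter 50% was taken anew over probes listed on either array, a larger set, so that count has another base. The median ratio of GC-rich miRNAs outside the 6, and its alternatives, were not run because their rows could not be named. No paired analysis was possible because the conditions had 1 array each, and no replicate could be left out. Low intensity limits miR-1915-3p most among the 6.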
